A study of Mus musculus with 5 samples.

Results

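The genes of 10 factors that cut nascent messenger RNA and prepare its end for the poly(A) tail were examined in purified male germ cells of the mouse. They are Cstf1, Cstf2, Cstf2t and Cstf3 of the cleavage stimulation factor, Cpsf1, Cpsf2, Cpsf3 and Cpsf4 of the cleavage and polyadenylation specificity factor, and Nudt21 and Cpsf6 of mammalian cleavage factor I. Members were taken by their gene symbol, and each of the 10 matched 1 of the 56324 rows of the deposited gene table. The samples were 2 of spermatocytes, the germ cells in meiosis, and 3 of spermatids, the haploid cells that follow. Both came from C57Bl/6 males aged 12 weeks, with no transgene or drug named in the labels, and were purified by sedimentation at unit gravity, which sorts cells by size, with an input of 1 µg of total RNA to a stranded poly(A) library kit. The labels do not say whether samples came from separate animals, and the p-values therefore reflect only how far these 5 libraries vary, possibly for technical reasons alone.

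Most messenger RNAs end where the RNA is cut downstream of the hexamer AAUAAA. CPSF binds that hexamer and carries the endonuclease, CstF binds GU-rich RNA beyond the cut, and cleavage factor I binds UGUA upstream of it; together they set which of several possible ends a transcript uses. Male germ cells are known for unusual use of poly(A) sites, and for Cstf2t, an intronless retrogene copy of the X-linked Cstf2 that is needed for male fertility and encodes another form of the subunit that binds GU-rich RNA. The X chromosome is silenced in pachytene spermatocytes.

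The result turns on Cstf2 and Cstf2t, and the starts of their coding sequences are printed because they show how far apart the copies lie, and so whether reads of one could be counted for the other. These are the first 150 bases of the coding sequence in the longest protein-coding transcript of each gene in GENCODE vM21 (GRCm38, the assembly also called mm10), 5′ to 3′, with the bases that differ between the genes in capitals.
Cstf2: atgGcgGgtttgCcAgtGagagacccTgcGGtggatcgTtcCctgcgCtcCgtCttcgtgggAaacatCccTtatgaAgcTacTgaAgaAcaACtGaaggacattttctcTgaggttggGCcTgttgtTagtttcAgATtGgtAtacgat
Cstf2t: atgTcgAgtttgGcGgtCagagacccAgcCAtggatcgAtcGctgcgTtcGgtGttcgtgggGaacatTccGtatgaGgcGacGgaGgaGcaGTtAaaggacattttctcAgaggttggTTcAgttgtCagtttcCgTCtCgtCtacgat
The stretches differ at 34 of 150 bases, 8 of them at the first base of a codon, 0 at the second and 26 at the third. Over 1721 aligned bases of the coding sequences, which are 1743 bases long in Cstf2 and 1899 in Cstf2t, 75.5% were identical, and the longest identical run was 26 bases. Of 4184 windows of 50 bases in the Cstf2t transcript, 0 occurred in a Cstf2 transcript. The Cstf2 transcript has 14 exons and the Cstf2t transcript 1.

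The sequences upstream of the same pair are shown because their transcripts moved in opposite directions. Each window runs from 250 bases before to 50 bases after the start site (RefSeq, GRCm38.p6), on the plus strand in both cases, with matches to the motifs named below in capitals.
Cstf2, chrX:134058926-134059225: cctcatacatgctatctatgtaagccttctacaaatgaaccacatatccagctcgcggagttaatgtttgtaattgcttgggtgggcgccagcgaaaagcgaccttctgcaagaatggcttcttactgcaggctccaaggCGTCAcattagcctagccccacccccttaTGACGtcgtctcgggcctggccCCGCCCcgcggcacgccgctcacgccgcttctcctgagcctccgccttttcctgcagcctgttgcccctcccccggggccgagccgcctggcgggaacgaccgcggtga
Cstf2t, chr19:31082591-31082890: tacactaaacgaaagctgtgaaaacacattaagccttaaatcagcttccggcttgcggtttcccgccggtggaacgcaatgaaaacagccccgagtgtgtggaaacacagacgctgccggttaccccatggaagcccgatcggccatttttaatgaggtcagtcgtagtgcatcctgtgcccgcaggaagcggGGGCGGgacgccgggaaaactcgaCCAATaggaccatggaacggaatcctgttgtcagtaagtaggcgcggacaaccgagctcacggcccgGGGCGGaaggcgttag
Both strands were searched for the cAMP response element TGACGTCA, its core TGACG, the GC box GGGCGG, the CCAAT box and the TATA box TATAAA, where TGACG lies inside TGACGTCA. The Cstf2 window held 2 such cores, with their leftmost bases at -110 and -81, and 1 GC box at -59. The Cstf2t window held 2 GC boxes, at -57 and 35, and 1 CCAAT at -33. Of 32851 promoter windows of this length, 20.8% held the core, 1.79% the full element, 35.7% the GC box, 37.4% CCAAT and 13.6% TATAAA. RefSeq windows were found for 9 of the 10 members. Of the 9, 5 held the TGACG core, 5 a GC box and 3 a CCAAT. The members' windows held 17 to 35 CG pairs, against a median of 7 over all windows, and TGACG and GGGCGG both contain CG. The percentages over all windows are therefore not a like comparison for these motifs, and an excess among the members was not tested. The core was found in Cstf2, Cstf3, Cpsf2, Cpsf6 and Nudt21, and not in Cstf1, Cstf2t, Cpsf3 or Cpsf4. Genes called higher and genes called lower in spermatids (below) were among those with the core and among those without it. A match is a description of the letters and not a bound site.

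Whole reads could be recovered from the deposited values, and they came to 52784231 to 84361908 per library. Levels below are normalized counts, the read counts divided by the authors' size factor for the library, and are given as mean ± SD. The fractions matched their labels in part. Spermatid markers were called higher in spermatids for 13 of 13 genes, and of 12 spermatocyte markers 7 were lower in spermatids and 1 higher. Markers of Sertoli cells, the somatic cells that hold germ cells in the tubule, summed to 82621 and 108237 in the spermatocyte samples against 8222 to 9954 in spermatids, with 18 of 19 lower in spermatids and none at 0 in every sample. Leydig cell markers were lower in spermatids for 8 of 8 genes, with sums of 3294 and 4053 against 166 to 386. In the other direction, 9 of 14 markers of myoid, endothelial, macrophage and blood cells were higher in spermatids and 1 lower, with sums of 1055 and 960 against 3181 to 4734, and of 11 spermatogonial markers 6 were higher and 1 lower. Spermatid replicate 1 stood apart: its spermatid markers summed to 1951279 against 766953 and 732158, and 9 of the 13 were highest there. The part of these differences between samples in the results below was not tested. In bulk samples, fewer cells of a type and less RNA per cell cannot be told apart.

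Of the 10 factor genes, 2 rose and 5 fell from spermatocytes to spermatids. By limma over all genes tested (Benjamini-Hochberg adjusted p under 0.05), Cstf2 and Cstf1 were higher in spermatids and Cstf2t, Cpsf4, Cstf3, Cpsf6 and Cpsf3 lower, while Cpsf1, Cpsf2 and Nudt21 were not past the threshold. Of all 28370 genes tested, 40.6% were called higher and 36.5% lower, and 77.1% in either direction, so 7 called among 10 members is near the background and is no result about the members. Spermatocyte and spermatid samples were fully separated in 8 of the 10 members and in 85.8% of all genes tested. The median log2 fold change of the members was -0.27, against 0.07 for all genes. What differs from gene to gene is the size: the log2 fold changes ran from -2.05 for Cstf2t to 5.40 for Cstf2, both forms of the same subunit.

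**Figure D1:**
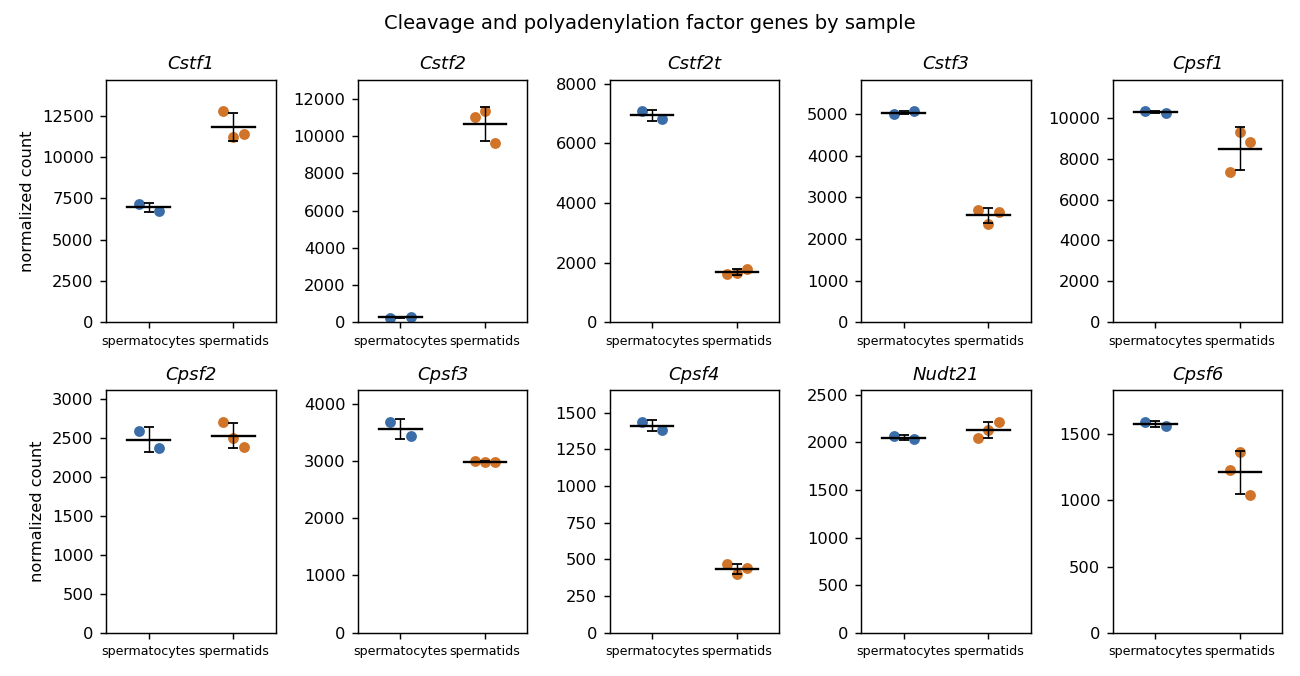
Normalized count (vertical axes, each from 0) of the 10 factor genes in each sample; points are samples, 2 of spermatocytes and 3 of spermatids, bars are means and whiskers are SD. Cstf2 rises from 243 and 259 to between 9619 and 11330, Cstf2t falls from 6801 and 7072 to between 1605 and 1787, and Cpsf2 and Nudt21 overlap between the groups.

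Cstf2 lies on chromosome X from 134059186 to 134086821 (mm10) and encodes the RNA-binding subunit of CstF found in most tissues. It had a normalized count of 243 and 259 in the spermatocyte samples and of 11026, 11330 and 9619 in the spermatid samples. Every spermatid sample was far above both spermatocyte samples, whose values rest on 226 and 387 reads. The spermatid mean of 10658 ± 913 (n = 3) was 42.4-fold the spermatocyte mean of 251 ± 11.4 (n = 2), a log2 fold change of 5.40 ± 0.11 (SE, limma adjusted p = 3.7e-07). Of all genes tested, 9.58% were called at least 32-fold higher in spermatids, and among the 828 tested genes of chromosome X the change of Cstf2 stood at percentile 77.5. The spermatocyte level of Cstf2 was 2.36% of its spermatid level. For the 13 spermatid markers that percentage ran from 1.06% to 2.0%, with a median of 1.48%; the part of spermatid RNA in the spermatocyte value of Cstf2 was not tested. Of the 5853 distinct 50-base windows of protein-coding Cstf2 transcripts, 6.54% also occurred in other genes on either strand, mainly in Nox1. The row of Cstf2 overlaps that of Nox1 and 1 unnamed row. The Nox1 row was at 3.23 in spermatocyte replicate 1 and at 6.20 in spermatid replicate 1, and the unnamed row at 15.1 and 174.

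Cstf2t, the retrogene, lies on chromosome 19 from 31082841 to 31087069 (mm10). Its normalized count was 7072 and 6801 in spermatocytes and 1605, 1633 and 1787 in spermatids. The groups lay far apart, and the spread within each was small. From 6937 ± 192 (n = 2) it fell to 1675 ± 98.0 (n = 3), 24.1% of the spermatocyte level and a log2 fold change of -2.05 ± 0.10 (SE, limma adjusted p = 3.3e-06). A called fall of 4-fold or more was found for 17.6% of all genes tested. Sertoli and Leydig cell markers were lower in spermatids too (18 of 19 and 8 of 8), and their part in the fall of Cstf2t and of the other members was not tested. The gene sits inside an intron of Prkg1 on the other strand and shares 0 of its 4233 exonic bases with Prkg1 exons. The Prkg1 row went the other way, from 242 in spermatocyte replicate 1 to 4212 in spermatid replicate 1. A pair of short unnamed rows within Cstf2t were at 242 and 346 in spermatocyte replicate 1 and at 62.0 and 76.0 in spermatid replicate 1. The strand setting of the counting is not given in the sources used here, so reads of overlapping rows cannot be told apart.

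The balance within the pair was measured per length, since the transcripts differ in length, as the share of Cstf2t in the sum of both levels per kilobase of merged exons. It was 98.4% and 98.3% in the spermatocyte samples and 24.0%, 23.8% and 28.7% in the spermatid samples. With these lengths, nearly all of the pair's messenger RNA in spermatocytes was of the retrogene. In spermatids about 3 parts in 4 were of the X-linked gene. The means were 98.4% ± 0.12 (SD, n = 2) and 25.5% ± 2.78 (SD, n = 3), a difference of -72.8 percentage points (two-sided exact permutation test, p = 0.1, the smallest that 2 against 3 samples allow). A share within a sample does not change when a library is scaled by 1 factor. With exons of protein-coding transcripts only, the difference was -79.8 percentage points, and the mean Cstf2t share was 97.4% in spermatocytes and 17.6% in spermatids. These means were 98.0% and 21.9% with longest transcripts, and 96.5% and 13.7% with no length correction. The size of the X-linked part in spermatids thus depends on the lengths. The summed level of both genes was 1697 and 1635 per kilobase in spermatocytes and 1580, 1620 and 1470 in spermatids. The spermatid sums lay below those of spermatocytes with these lengths and above them with others: per kilobase of protein-coding exons, the spermatocyte samples gave 1713 and 1652, while the spermatid samples gave 2308, 2368 and 2105.

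**Figure D2:**
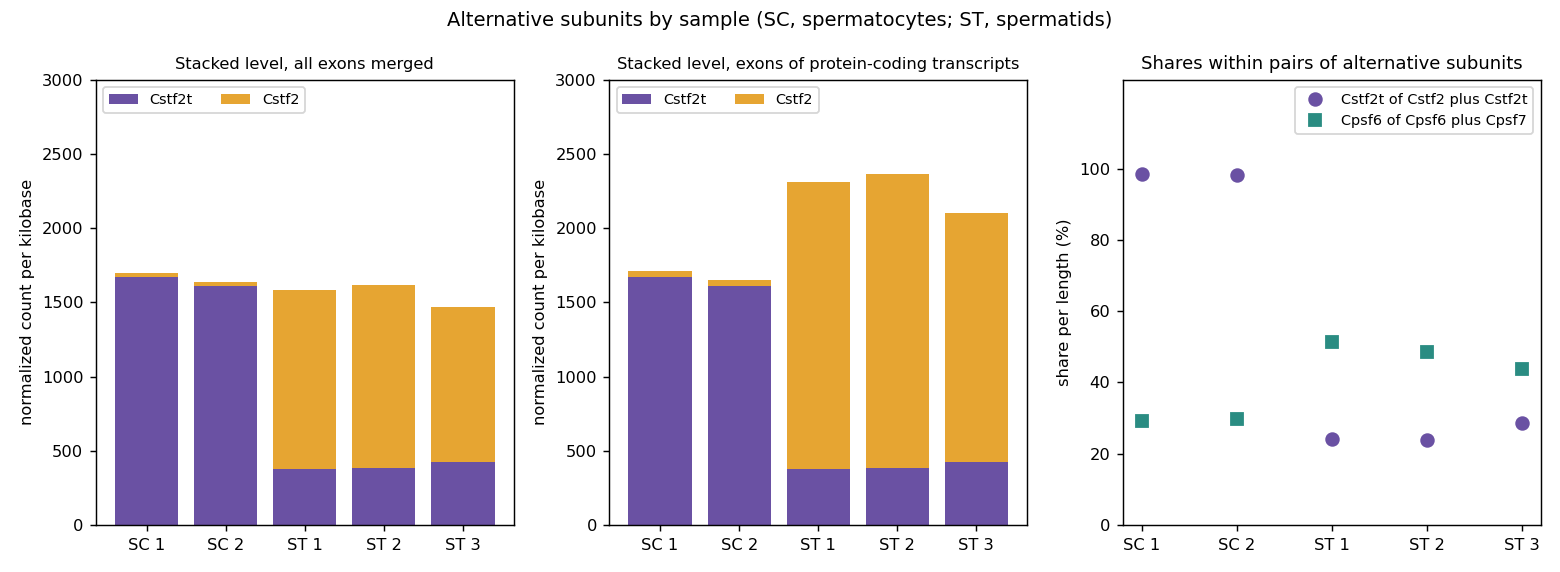
Left and middle, normalized count per kilobase of Cstf2t (purple) and Cstf2 (orange) stacked for each sample, with all exons merged or with exons of protein-coding transcripts only; right, share (%) of Cstf2t in the pair (circles) and of Cpsf6 in Cpsf6 plus Cpsf7 (squares). SC are spermatocyte and ST spermatid samples. With all exons merged, Cstf2t makes up 98.4% and 98.3% of its pair in spermatocytes and 23.8% to 28.7% in spermatids.

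The partners of this subunit in CstF moved apart. Cstf1 (chromosome 2, 172370696 to 172382448) encodes a WD-repeat subunit and was at 7161 and 6745 in spermatocytes and at 12781, 11220 and 11415 in spermatids. All spermatid samples were above both spermatocyte samples, and the level rose 1.70-fold, with a log2 fold change of 0.76 ± 0.10 (SE, limma adjusted p = 0.00032). With libraries rescaled to equal totals the change was 0.12 (limma adjusted p = 0.24). Quantile normalization left 0.03 (limma adjusted p = 0.74), so the call ended under both. Cstf3 (chromosome 2, 104590484 to 104665425), which encodes the scaffold that holds the other subunits, was at 5009 and 5067 in spermatocytes and fell to 2702, 2363 and 2647 in spermatids, a level 1.96-fold lower (log2 fold change -0.97 ± 0.10, limma adjusted p = 0.00012). Its row overlaps 4 unnamed rows, the highest of them at 502 in spermatocyte replicate 1 and 211 in spermatid replicate 1.

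Among the subunits of CPSF, the strongest change was in Cpsf4, the zinc-finger subunit that touches the AAUAAA hexamer (chromosome 5, 145167222 to 145182040). It was at 1436 and 1383 in spermatocytes and at 468, 399 and 439 in spermatids. The groups were well separated and Cpsf4 fell to 30.9% of the spermatocyte level (log2 fold change -1.69 ± 0.13, limma adjusted p = 2.7e-05). Its relative Cpsf4l, which is not one of the 10, was at 84.0 and 76.4 in spermatocytes and at 5724, 6011 and 6824 in spermatids (log2 fold change 6.25 ± 0.12, limma adjusted p = 3.7e-07). The Cpsf4l row lies wholly within that of D11Wsu47e, which went from 2167 in spermatocyte replicate 1 to 48031 in spermatid replicate 1. In GENCODE these genes are on opposite strands, and D11Wsu47e ends at 113694647, before Cpsf4l begins at 113698172. The deposited D11Wsu47e row runs on to 113726467, and its exons there were not examined. How many reads of D11Wsu47e were counted for Cpsf4l cannot be told from these values.

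The other CPSF subunits differed less between the cell types with the deposited scaling. Cpsf1, the scaffold (chromosome 15, 76595809 to 76607591), was at 10317 and 10238 in spermatocytes and at 7324, 9327 and 8820 in spermatids. The groups did not overlap, but spermatid replicate 1 was well below the other spermatid samples, and the log2 fold change of -0.28 was not past the threshold (limma adjusted p = 0.067, 95% interval -0.57 to 0.0043). That library has the highest sum of spermatid markers and the highest value of 9 of the 13; the part of this in the Cpsf1 value was not tested. Without spermatid replicate 1 the log2 fold change was -0.18 and without spermatid replicate 2 it was -0.35, the latter past the threshold (limma adjusted p = 0.047). Cpsf1 was also past it with TMM factors (-0.39), equal library totals (-0.93) and quantile normalization (-1.01). Cpsf3, the endonuclease that makes the cut (chromosome 12, 21286297 to 21315056), was at 3677 and 3438 in spermatocytes and at 2991, 2984 and 2989 in spermatids. It fell to 84.0% of the spermatocyte level (log2 fold change -0.25 ± 0.09, limma adjusted p = 0.035), and this call ended when spermatocyte replicate 1 or 2, or spermatid replicate 2 or 3, was left out (limma adjusted p of 0.20, 0.077, 0.072 and 0.074). With other scalings the fall of Cpsf3 was called and larger, -0.36 with TMM factors, -0.90 with equal library totals and -0.84 after quantile normalization. Cpsf2, a relative of Cpsf3 without its cutting activity (chromosome 12, 101975973 to 102005993), was at 2593 and 2367 in spermatocytes and at 2705, 2501 and 2384 in spermatids. The groups overlapped, and the log2 fold change of 0.03 had a 95% interval of -0.22 to 0.28 (limma adjusted p = 0.81). The change of Cpsf2 turned to -0.62 with equal library totals and -0.52 after quantile normalization, both called lower (limma adjusted p of 0.0010 and 0.0014). With TMM factors the change was -0.08 and not called.

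In cleavage factor I, Nudt21, whose protein binds UGUA as a dimer (chromosome 8, 94015498 to 94037039), was at 2067 and 2036 in spermatocytes and at 2042, 2130 and 2214 in spermatids. The groups overlapped and the log2 fold change of 0.05 had a 95% interval of -0.17 to 0.28 (limma adjusted p = 0.63). The change of Nudt21 turned to -0.59 with equal library totals and -0.46 after quantile normalization, both called lower (limma adjusted p of 0.0060 and 0.0057). With TMM factors the change was -0.05 and not called. Of the 5390 distinct 50-base windows of its protein-coding transcripts, 11.9% also occurred in other genes, mainly in Gm7488. That percentage was 6.54% for Cstf2, 2.83% for Cpsf3, 1.74% for Cpsf2 and 0% for the remaining members. Cpsf6, one of the large subunits (chromosome 10, 117344668 to 117376974), was at 1592 and 1559 in spermatocytes and at 1226, 1365 and 1042 in spermatids. It fell to 76.9% of the spermatocyte level (log2 fold change -0.39 ± 0.14, limma adjusted p = 0.037), a call that ended when spermatocyte replicate 1 or 2, or spermatid replicate 3, was left out (limma adjusted p of 0.15, 0.13 and 0.082). With other scalings the fall of Cpsf6 was called and larger, -0.49 with TMM factors, -1.03 with equal library totals and -0.87 after quantile normalization. Cpsf7, which encodes the alternative large subunit, fell further, from 2364 and 2240 to 710, 878 and 815 (log2 fold change -1.53 ± 0.13, limma adjusted p = 4.6e-05). The Cpsf6 share of the pair, per kilobase of merged exons, was 29.1% and 29.8% in spermatocytes and 51.3%, 48.7% and 43.8% in spermatids. The share was higher in all 3 spermatid samples, by 18.5 percentage points on average (two-sided exact permutation test, p = 0.1, also after adjustment over the 2 shares tested). Its spermatocyte and spermatid means were 23.0% and 39.8% with protein-coding exons, and 26.9% and 44.7% with longest transcripts. They were 40.6% and 60.1% with no length correction, so which of the pair was more abundant in spermatids is not settled. The Cpsf7 row overlaps that of Tmem216, with 2.63% of the exonic bases of Cpsf7 shared, and an unnamed row at 1137 in spermatocyte replicate 1 and 335 in spermatid replicate 1.

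Directions above are those of the deposited scaling. The median log2 fold change of all genes tested, 0.07 as deposited, moved to -0.57 once library totals were made equal, to -0.42 under quantile normalization and to -0.04 under TMM, and the members' values shifted with it. Taken relative to that median, Cstf2 stood at 5.33 as deposited and at 5.27 to 5.33 under the other 3 scalings, Cstf2t at -2.12 and -2.27 to -2.12, and Cpsf4 at -1.76 and -1.77 to -1.75. Cstf3 stood at -1.04 and Cstf1 at 0.69 as deposited, with -1.18 and 0.44 after quantile normalization. With equal library totals 1 member was called higher and 8 lower, against 30.5% and 49.4% of all genes (79.9% in either direction). Quantile normalization gave the same counts, 1 and 8, against 32.9% and 46.9% (79.8% in either direction). TMM factors gave 2 higher and 6 lower, against 38.9% and 38.7% (77.6% in either direction).

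**Figure D3:**
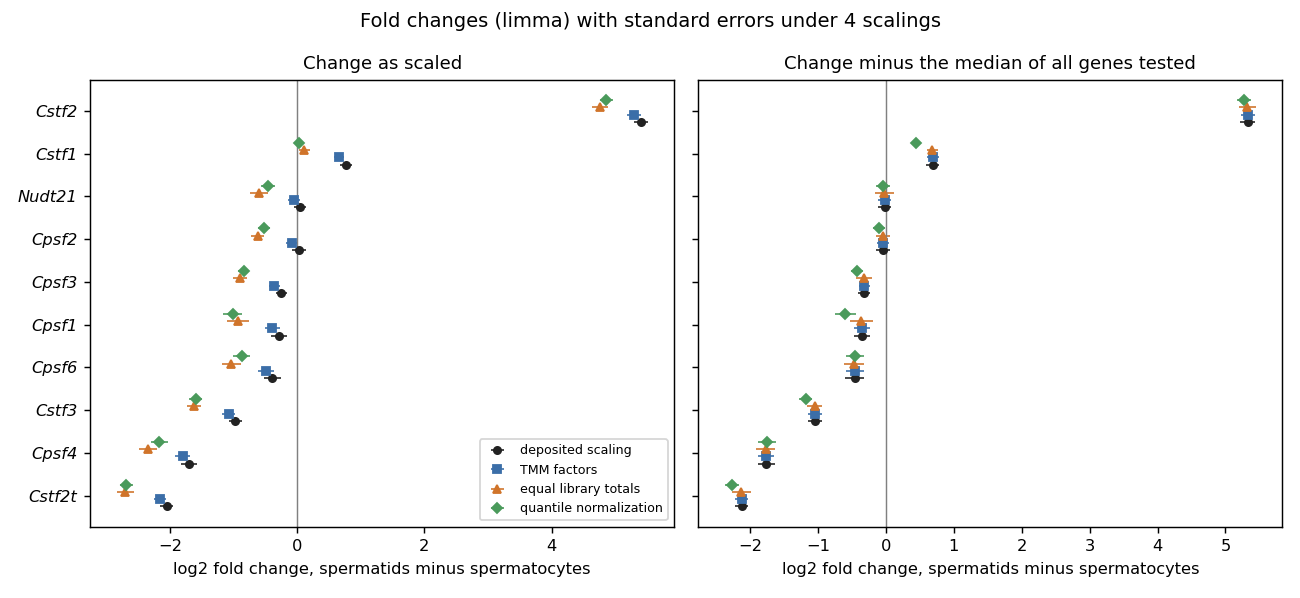
Log2 fold change (horizontal axis, spermatids minus spermatocytes) of the 10 factor genes with standard errors from limma under 4 scalings, as scaled (left) and after subtracting the median of all genes tested (right). Left, the points of a gene spread by scaling and Cpsf2 and Nudt21 cross 0; right, Cstf2 lies at 5.27 to 5.33 and Cstf2t at -2.27 to -2.12 under each scaling.

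Per kilobase of merged exons, the level of the members within spermatocytes was ordered as Cstf1 (1984), Cpsf1 (1823), Cstf2t (1639), Cstf3 (857), Cpsf3 (674), Cpsf2 (433), Cpsf4 (392), Nudt21 (383), Cpsf6 (150) and Cstf2 (27.4). In this order Cpsf4 and Nudt21 overlapped between samples, and Cstf2 was the lowest of the 10 in both samples. In spermatids the order was Cstf1 (3369), Cpsf1 (1506), Cstf2 (1161), Cpsf3 (566), Cpsf2 (441), Cstf3 (437), Nudt21 (398), Cstf2t (396), Cpsf4 (121) and Cpsf6 (115). By these means and lengths, Cstf2 went from the last place to the third and Cstf2t from the third to the eighth, whereas Cstf1 and Cpsf1 kept the first places in both. Neighbours overlapped between spermatid samples in places 5 to 8 (Cpsf2 with Cstf3, Cstf3 with Nudt21, Nudt21 with Cstf2t), as did Cpsf4 with Cpsf6, so the order within these is not settled. The order depends on the lengths: per kilobase of protein-coding exons Cpsf1 led in spermatocytes, at 2283 and 2266 against 2044 and 1925 for Cstf1, and Cstf3 was at 1778 and 1799. In spermatids, with the same exons, Cstf2 was at 1929, 1982 and 1682 and Cpsf1 at 1621, 2064 and 1952. These overlapped, so which of Cstf2 and Cpsf1 was higher there is not settled.

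The hexamer that CPSF reads was looked for in the members' own transcripts. In the last 40 bases of the longest protein-coding transcript, AATAAA occurred in 6 of the 10 members, ATTAAA without AATAAA in 1, and neither in 3, Cstf2t, Cpsf1 and Cpsf3. Among 21877 genes 57.3% had AATAAA and 12.7% ATTAAA alone. Sites of 3 members are shown, from both directions of change and both hexamers, each as 30 bases with the hexamer in capitals.
Cstf1: tgtgatttctaaAATAAAttttttttatat
Cstf2: ctgtcgtggattcAATAAAtattttaaaag
Cpsf4: tctatgaggttgATTAAAaagcttgttttt
The hexamer ends 19 bases before the annotated transcript end in Cstf1, 11 in Cstf2 and 13 in Cpsf4. The table gives 1 value per gene, so which end a transcript used was not analysed here.

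Other genes of cleavage and polyadenylation, among them genes of poly(A) polymerases and of poly(A)-binding proteins, also split. Of 19 other cleavage and polyadenylation genes 18 were tested, of which 10 were higher in spermatids and 5 lower, beside 40.6% and 36.5% of all genes, with a median log2 fold change of 0.59 against 0.07 for all genes. With equal library totals 7 were higher and 9 lower (30.5% and 49.4% of all genes), and after quantile normalization 8 and 9 (32.9% and 46.9%). Rises included Sympk, the scaffold that joins the nuclease module to the rest, from 11491 and 11242 to 23504, 25351 and 23368 (log2 fold change 1.08 ± 0.08, limma adjusted p = 3.2e-05). Pcf11, which binds the tail of RNA polymerase II, rose from 3632 and 3454 to 7744, 6688 and 7244 (log2 fold change 1.03). Fip1l1, which brings the poly(A) polymerase to CPSF, fell from 5635 and 5052 to 1893, 1862 and 1753 (log2 fold change -1.54 ± 0.10, limma adjusted p = 1.4e-05). Ssu72, a phosphatase of the polymerase tail, had the largest fall, from 2222 and 2293 to 431, 562 and 426 (log2 fold change -2.27). Wdr33, which binds the hexamer together with Cpsf4, was at 2482 and 2476 and then at 3079, 2542 and 2847 (limma adjusted p = 0.17, 95% interval of the log2 fold change -0.08 to 0.45). Its log2 fold change of 0.18 turned to -0.46 with equal library totals and -0.37 after quantile normalization, both called lower (limma adjusted p of 0.0069 and 0.011). Of the poly(A) polymerases, Papola rose 2.84-fold, from 1753 and 1577 to 5243, 4590 and 4346, and the testis form Papolb, the most abundant gene of the list, from 51098 and 47486 to 143827, 116272 and 115662 (log2 fold change 1.34 ± 0.12). Papolg, another poly(A) polymerase, fell from 542 and 512 to 126, 137 and 112 (log2 fold change -2.07 ± 0.17, limma adjusted p = 4.8e-05), and Tut1, a terminal uridylyl and adenylyl transferase, was not past the threshold (0.07, limma adjusted p = 0.52; -0.58 and called with equal library totals). Zc3h14, a poly(A)-binding protein gene, was next in level, with a rise of 0.39 (limma adjusted p = 0.016). The change turned to -0.26 with equal library totals and after quantile normalization, called lower under both (limma adjusted p of 0.012 and 0.023). The call of a rise also ended without spermatocyte replicate 1 or 2.

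Integrator, which cuts other RNAs made by RNA polymerase II and holds the relatives of Cpsf2 and Cpsf3, had 7 of 17 tested genes higher in spermatids and 5 lower, near the 40.6% and 36.5% of all genes, with a median of 0.04. Ints9, the relative of Cpsf2, was at 2250 and 2156 and then at 2276, 2351 and 2164 (log2 fold change 0.04, limma adjusted p = 0.72). Its change turned to -0.61 with equal library totals and -0.49 after quantile normalization, both called lower (limma adjusted p of 0.0025 and 0.0022). Ints11, the relative of Cpsf3 that makes Integrator's cut, was at 1605 and 1698 and then at 1333, 1449 and 1428 (log2 fold change -0.24, limma adjusted p = 0.071), and was past the threshold with TMM factors (-0.34), equal library totals (-0.88) and quantile normalization (-0.73). The largest changes were in Nabp1, a single-stranded DNA-binding partner of the complex, which rose from 1066 and 1099 to 18577, 17456 and 14033 (3.93 ± 0.13), and in Ints7, which fell from 5253 and 5302 to 2231, 2317 and 1981 (-1.28 ± 0.10). The most abundant, Ints10 and Ints6, rose by 0.68 and 0.81 on the log2 scale, and both calls ended with equal library totals (0.03 and 0.16) and after quantile normalization (-0.04 and 0.04). With equal library totals 2 genes of the complex were called higher and 10 lower, beside 30.5% and 49.4% of all genes.

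Messenger RNAs of replication-dependent histones are cut by Cpsf3 but carry no poly(A) tail when made in dividing cells. Of 6 genes of histone mRNA ends, 1 was higher in spermatids and 2 lower, beside 40.6% and 36.5% of all genes. With equal library totals 1 was higher and 4 lower (30.5% and 49.4% of all genes). Quantile normalization also gave 1 and 4 (32.9% and 46.9% of all genes). Slbp, which binds the histone stem-loop, fell from 7160 and 6661 to 5019, 5208 and 4786 (log2 fold change -0.47 ± 0.09, limma adjusted p = 0.0027). Zfp473 fell by 1.00 on the log2 scale, Eri1, an exonuclease gene, rose by 1.38, and Lsm10 was not past the threshold (-0.03, limma adjusted p = 0.79). Lsm10 was called lower at -0.68 with equal library totals and at -0.49 after quantile normalization (limma adjusted p of 0.0029 and 0.0040). Of 7 tested genes of transcription termination and of proteins on the polymerase tail, 1 was higher and 4 lower, beside 40.6% and 36.5% of all genes, with a median of -0.51. With equal library totals 1 was higher and 6 lower, beside 30.5% and 49.4% of all genes. Quantile normalization gave the same counts, 1 and 6, beside 32.9% and 46.9%. The gene that rose was Xrn2, the exonuclease that degrades the RNA left after the cut, from 3184 and 3400 to 13171, 13826 and 12728 (log2 fold change 2.01 ± 0.09, limma adjusted p = 2.4e-06). Scaf4 fell from 14262 and 13629 to 10581, 9179 and 9732 (log2 fold change -0.51 ± 0.09), and Ttf2 fell by 1.59 on the log2 scale. Scaf8 shares its row with another symbol and was left out; that row had a log2 fold change of -0.29 (limma adjusted p = 0.024).

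**Figure D4:**
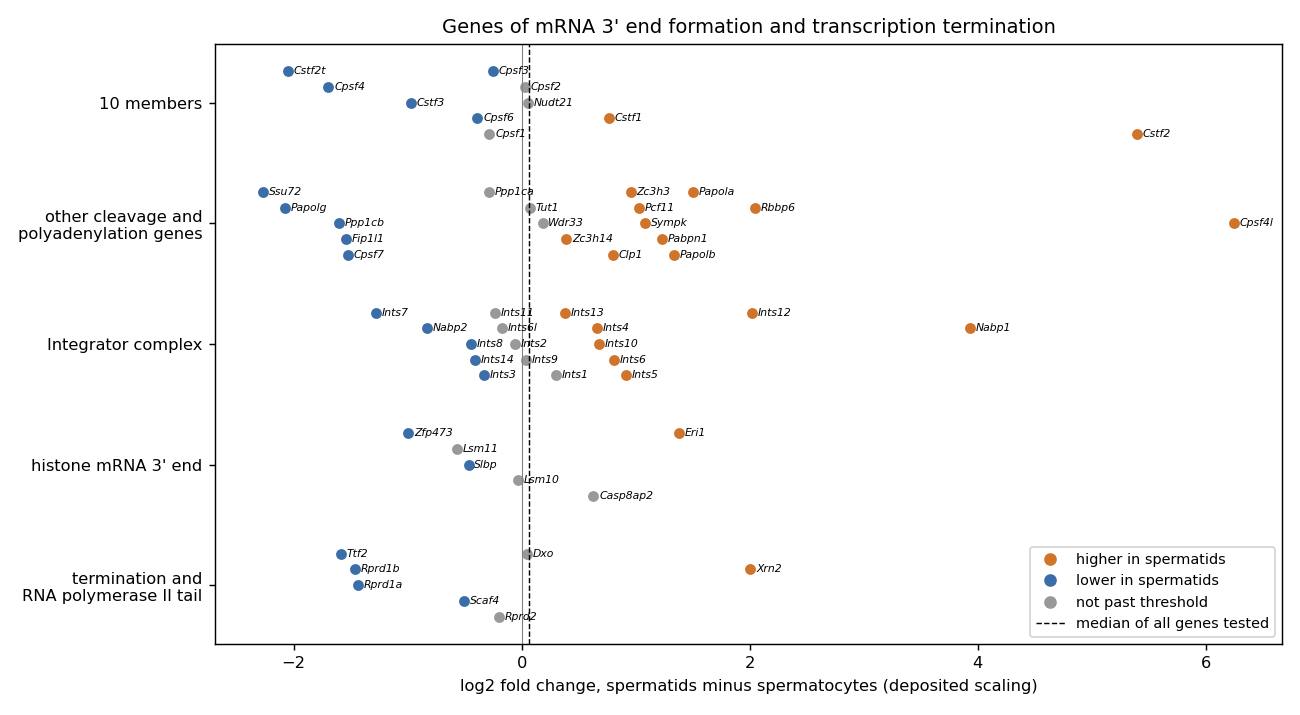
Log2 fold change (horizontal axis, spermatids minus spermatocytes, deposited scaling) of the 10 factor genes and of 4 further groups of genes, 1 point per tested gene; orange and blue are genes called higher and lower by limma, grey not past the threshold, and the dashed line is the median of all genes tested (0.07). Cstf2 at 5.40 and Cpsf4l at 6.25 lie far to the right of the other genes, and Ssu72 at -2.27, Papolg at -2.07 and Cstf2t at -2.05 are the furthest to the left.

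The genes most like Cstf2 and Cstf2t across the 5 samples were sought among 11962 other genes with a mean of at least 100, by the root mean square distance between centred log2 profiles. Nearest to Cstf2 were Rxra (distance 0.044), Msr1 (0.075) and Ston1 (0.079), with Rxra at 82.9 and 85.8 in spermatocytes and at 3499, 3913 and 3267 in spermatids. Nearest to Cstf2t were Iffo1 (0.025), Elfn2 (0.028) and Msmp (0.040), with Iffo1 at 3478 and 3461 in spermatocytes and at 814, 794 and 889 in spermatids. With 2 groups and 5 samples this likeness says only that these genes changed by a similar size in the same direction.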

How the data were processed

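The deposited table holds a normalized signal for each gene and sample, which the authors made with DESeq from gene counts and 1 size factor a library, according to its header line and the labels. The submitters' processing notes list STAR 2.4.0, SAMtools, Picard, FastQC and the build mm10. Which program counted the reads, and with what strand setting, is not stated in them. All values (100%) were whole multiples, within 0.001, of 1 read's worth in their library, which gave the reads.

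Members and gene lists were chosen with earlier results of these data known. Replicates were numbered in accession order. The 28370 genes with a mean of at least 10 entered limma 3.58.1 (R 4.3.3) as log2(value + 1), with a trend in eBayes, and p-values were adjusted over all of them at 0.05. Fold changes on this scale understate those of low genes. The step was tested on simulated data. Alternatives were edgeR 4.0.16 (11537 genes higher and 10394 lower in spermatids, against 11512 and 10359 by limma) and DESeq2 1.42.0 on the reads, 4 other scalings, other pseudocounts and filters, other eBayes settings, and each replicate left out. Lengths are from GENCODE vM21; coding sequences were aligned with Biopython 1.88.

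Beside the members, the text names in each list the 2 genes of highest mean and the largest called change in each direction, 9 partners or relatives of the members by name, and the 3 genes nearest to Cstf2 and to Cstf2t. Apart from Scaf8, whose row carries a further symbol, a gene of transcription termination is not reported here. Prkg1, D11Wsu47e, Nox1, Tmem216, Gm7488, Papolg, Tut1 and Scaf8 were named after their values were seen.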

Additional observations from a re-analysis of the deposited data

How the results depend on the processing

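Cstf2, Cstf2t, Cstf3 and Cpsf4 kept direction and call under every alternative run. Leaving out each replicate in turn gave log2 fold changes of 5.35 to 5.47 for Cstf2, -2.10 to -2.02 for Cstf2t, -0.35 to -0.18 for Cpsf1, -0.037 to 0.094 for Cpsf2 (below 0 without spermatocyte replicate 2 or spermatid replicate 1), -0.30 to -0.20 for Cpsf3, -0.48 to -0.28 for Cpsf6 and -0.080 to 0.015 for Lsm10 (above 0 without spermatocyte replicate 1), and differences of -74.5 to -72.0 percentage points for the Cstf2t share and of 16.8 to 20.5 for the Cpsf6 share. It gave 3 to 5 members called lower, 3 to 5 Integrator genes called lower and 1 to 2 histone end genes called higher; 3 members were called lower without spermatocyte replicate 1 or 2 or without spermatid replicate 3, 3 Integrator genes without spermatocyte replicate 1 or 2, and the second histone end gene was called higher without spermatocyte replicate 2. Lower calls over all genes went from 10359 of 28370 to 7913 of 27743 and 7821 of 27825 without spermatocyte replicate 1 or 2, and to 10206 of 28542 without spermatid replicate 3. Without an eBayes trend 3 members were called lower, beside 9961 of all 28370 genes tested. Cpsf3 was then at -0.25 (limma adjusted p = 0.13) and Cpsf6 at -0.39 (limma adjusted p = 0.091). With no filter on low values Cpsf6, at -0.39, was not called (limma adjusted p = 0.055). The causes of these changes in calls were not tested. With equal library totals, after quantile normalization and with TMM factors, Cpsf1 was called at -0.93, -1.01 and -0.39. Cpsf2 (-0.62, -0.52, -0.076) and Nudt21 (-0.59, -0.46, -0.052) turned, and both were called lower except with TMM factors. Under equal library totals and quantile normalization, Cstf1 lost its call (0.12 and 0.028), and 1 member was called higher and 8 lower. Other cleavage genes were lower for 9 and 9, Integrator had 2 and 2 genes higher and 10 and 9 lower, and 4 and 4 histone end genes were lower. Of all genes, 30.5% and 32.9% were called higher and 49.4% and 46.9% lower. Wdr33 (-0.46 and -0.37), Zc3h14 (-0.26 and -0.26), Ints9 (-0.61 and -0.49) and Lsm10 (-0.68 and -0.49) were called lower under both. Ints10 turned to -0.045 after quantile normalization, and Ints9 was at -0.066 with TMM factors. A scaling on the other genes of the lists, chosen after seeing the data, gave -0.36 for Cpsf1 (called), -0.046 for Cpsf2, -0.022 for Nudt21 and -0.036 for Ints9. The difference in the Cstf2t share was -76.1 percentage points with longest transcripts, -82.8 with no length correction and -79.8 with protein-coding exons (chosen after seeing the data). No paired analysis was possible because the labels give the groups no shared replicate numbers.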
